A study of Homo sapiens with 56 samples.

Results

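The TAM receptor axis and the kinase SRC were followed through 2 human acute myeloid leukaemia lines exposed to inhibitors of RNA polymerase I. The genes were the 3 TAM receptors AXL, MERTK and TYRO3, their ligands GAS6 and PROS1, and SRC, 6 of the 59081 gene symbols present in the tables of both lines. They were picked by name with their responses in these libraries already known. Their values in each compound against its vehicle are therefore given as a description, with log2 fold changes, standard errors and 95% intervals but no p-value.

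Bulk RNA sequencing was made of Mv4;11 and KG-1, both grown in suspension in RPMI medium. Cells received 1 µM PMR-116 or 1 µM CX-5461, which inhibit the polymerase that transcribes the ribosomal RNA precursor, for 3 h or 12 h, and each compound had its own vehicle groups in a citric acid and NaH2PO4 buffer. There were 3 libraries in each of the 8 Mv4;11 groups and 4 in each of the 8 KG-1 groups, 56 in all. The library names and table of KG-1 are labelled batch 2, and that table also as trimmed, while those of Mv4;11 carry neither label. What the batch refers to is not given. Line, batch and trimming thus cannot be told apart and no test was made across lines. The labels do not say that replicates came from separate cultures, so the errors and p-values measure only the spread between these libraries. In bulk RNA, fewer cells of a kind and less RNA per cell cannot be told apart.

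AXL, MERTK and TYRO3 are receptor tyrosine kinases that share an extracellular part built of immunoglobulin-like and fibronectin domains. GAS6 and PROS1 (protein S) are secreted, vitamin K dependent proteins that bind phosphatidylserine on dying cells at their carboxylated end and the receptors at the other end, and so link uptake of dead cells to receptor signalling. GAS6 binds all 3 receptors, whereas PROS1 binds MERTK and TYRO3. SRC is a membrane-anchored, non-receptor tyrosine kinase that acts downstream of many receptors and is held inactive by phosphorylation through CSK. AXL and GAS6 have been studied in acute myeloid leukaemia as a survival pathway.

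Total counts were 28751758 to 41542156 per library in Mv4;11 and 31010072 to 72707757 in KG-1, and 20495 and 18618 genes passed the filter on low counts. All 6 genes passed it in Mv4;11. In KG-1 only AXL, MERTK, TYRO3 and SRC did. Replicates of a group correlated at 0.98 to 0.988 in Mv4;11 and at 0.982 to 0.99 in KG-1 (Pearson r of log2 CPM across genes, where CPM are counts scaled to the library size). In Mv4;11, the replicate 3 library of the 12 h PMR-116 vehicle stood apart with 438 CPM of the noncoding RNA RN7SL2. Values at 12 h of PMR-116 without it are given for AXL, GAS6 and PROS1. With any single library of that comparison left out, log2 fold changes were 1.41 to 1.7 for MERTK, -1.29 to -1.04 for TYRO3 and 1.22 to 1.35 for SRC. The KG-1 libraries expressed the progenitor antigen CD34, which was at or near 0 in Mv4;11. The summed CPM of the leukaemia and progenitor markers were 970 to 1470 in Mv4;11 and 2640 to 3370 in KG-1, against 2.58 to 6.49 and 107 to 125 for lymphocyte markers.

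The receptors stand at separate places in the genome (GRCh38, GENCODE v29): AXL on chromosome 19 from 41219203 to 41261766, MERTK on chromosome 2 from 111898479 to 112029561, and TYRO3 on chromosome 15 from 41557675 to 41583586, each on the plus strand. GAS6 lies on chromosome 13 from 113820549 to 113864067 on the minus strand, PROS1 on chromosome 3 from 93873033 to 93980003 on the minus strand, and SRC on chromosome 20 from 37344685 to 37406050 on the plus strand. RefSeq promoters (GRCh38.p14) were matched for 5 of the 6 genes, 7 start sites in all, with AXL and TYRO3 having 2 each. Stretches of the 3 receptor promoters that hold no annotated exon of the gene are shown because the receptors, although relatives, differed in their response. Capitals mark the GC box GGGCGG, on either strand, which the factor SP1 can bind. The AXL stretch is chr19:41218973-41219202, the MERTK stretch is chr2:111898357-111898478 and the TYRO3 stretch, at the more upstream of its start sites, is chr15:41558962-41559033, all on the plus strand. The TYRO3 stretch lies inside the gene as GENCODE v29 annotates it, downstream of the annotated start.
AXL: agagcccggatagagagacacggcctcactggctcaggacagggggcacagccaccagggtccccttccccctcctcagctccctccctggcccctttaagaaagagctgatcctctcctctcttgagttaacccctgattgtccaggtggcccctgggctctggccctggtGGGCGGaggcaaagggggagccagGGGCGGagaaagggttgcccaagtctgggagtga
MERTK: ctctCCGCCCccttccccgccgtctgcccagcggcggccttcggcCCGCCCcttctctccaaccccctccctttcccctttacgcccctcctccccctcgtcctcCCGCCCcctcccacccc
TYRO3: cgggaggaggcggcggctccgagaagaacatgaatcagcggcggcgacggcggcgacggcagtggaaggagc
The printed AXL stretch of 230 bases held 2 GC boxes, the MERTK stretch of 122 bases held 3, and the TYRO3 stretch of 72 bases held 0. Over the whole 250 bases before the start, at the more upstream start of AXL and TYRO3, AXL held 2, MERTK 4, TYRO3 3, GAS6 3 and PROS1 2. At least 1 was held by 42.6% of all 35116 RefSeq promoters. The GC content of these windows was 64.4% for AXL, 78.8% for MERTK, 80% for TYRO3, 66.8% for GAS6 and 57.6% for PROS1, with a median of 58% over all promoters. The windows at the second start held 0 GC boxes in AXL (54.4% GC) and 0 in TYRO3 (58.8% GC). On either strand, the AP-1 motif TGANTCA was found at the more upstream TYRO3 start only (6.57% of all promoters held it). The TEAD motif GGAATG was found at the second AXL start only (11.9%), and the E-box CACGTG in none of the 7 (6.34%). These are matches of letters and no binding was measured.

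Levels of different genes were compared per kilobase of the principal transcript, in the 12 vehicle libraries of Mv4;11 and the 16 of KG-1. In Mv4;11 the ligand GAS6 was far above the rest, at 49.9 ± 3.7 CPM per kilobase (mean ± SD, n = 12). SRC followed at 4.44 ± 0.492 and PROS1 at 2.26 ± 0.257. TYRO3 at 1.31 ± 0.216 and AXL at 1.05 ± 0.156 were the leading receptors and their ranges overlapped. MERTK was lowest at 0.366 ± 0.0988. KG-1 had another order, with TYRO3 at 4.35 ± 0.498 and MERTK at 3.54 ± 0.577 (n = 16), whose ranges overlapped. There SRC stood at 0.0911 ± 0.0581, AXL at 0.0471 ± 0.0179, GAS6 at 0.0384 ± 0.0402 and PROS1 at 0.00392 ± 0.00627 CPM per kilobase. The ranges of SRC, AXL and GAS6 overlapped in KG-1, as did those of GAS6 and PROS1, which were both too low there to be tested.

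AXL was the gene of the group that departed most from its vehicle in Mv4;11, and it did so late. At 12 h, the PMR-116 libraries held 41.8, 39.9 and 47.4 CPM of AXL against 4.31, 4.13 and 5.57 in their vehicle. The CX-5461 libraries held 42.1, 50.1 and 49.7 against 4.62, 3.39 and 5.48. The lowest treated library of either compound was thus above the highest vehicle library by a wide margin. The log2 fold change of AXL at 12 h was 3.20 ± 0.16 for PMR-116 (95% interval 2.86 to 3.54, 9.19-fold) and 3.38 ± 0.16 for CX-5461 (3.05 to 3.72, 10.4-fold). That placed AXL at rank 61 and rank 56 of 20495 genes ordered by rise, a description, since it was picked with its response known. Without the vehicle library that stood apart, AXL was at 3.33 ± 0.18 with PMR-116. At 3 h the compounds parted. AXL in the CX-5461 libraries was at 11, 8.38 and 11.4 CPM against 5.19, 6.14 and 5.01, a log2 fold change of 0.91 ± 0.16 (0.58 to 1.24), with no overlap. With PMR-116 at 3 h it was at 4.78, 3.84 and 5.69 against 5.15, 5.36 and 5.07, overlapping its vehicle at -0.12 ± 0.17 (-0.47 to 0.22).

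The effect on AXL at 3 h was lower for PMR-116 than for CX-5461 by a log2 difference of -1.03 (95% interval -1.51 to -0.55), and at 12 h the interval of the difference included 0 (-0.18, -0.64 to 0.28). The effect at 12 h exceeded that at 3 h by 3.32 (2.84 to 3.8) for PMR-116 and by 2.47 (2.01 to 2.94) for CX-5461. An antisense transcript annotated within AXL, AC011510.1, had at most 4.97 counts in a Mv4;11 library, against at least 102 for AXL.

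MERTK, a main receptor by which macrophages clear dead cells, was scarce in Mv4;11, with 23 to 172 counts per library, and its values spread widely. At 12 h of PMR-116 it was at 4.21, 2.91 and 3.4 CPM against 1.37, 0.862 and 1.28 in the vehicle, a log2 fold change of 1.57 ± 0.32 (0.92 to 2.23, 2.97-fold). With 12 h of CX-5461 it was at 2.21, 2.8 and 3.13 against 1.54, 1.1 and 1.88, or 0.83 ± 0.31 (0.19 to 1.48, 1.78-fold). Every treated library at 12 h was above every library of its own vehicle. At 3 h the MERTK values of PMR-116 were 0.858, 0.999 and 0.592 against 0.957, 2.08 and 2.01, a log2 fold change of -1.04 ± 0.33 (-1.73 to -0.35) with overlapping groups. With CX-5461 at 3 h they were 0.834, 2.23 and 1.82 against 1.49, 1.47 and 1.31, with the lowest and the highest library both treated (0.19 ± 0.32). The low value at 3 h of PMR-116 was -0.87 without vehicle replicate 2, -0.88 without vehicle replicate 3 and -0.85 without treated replicate 3, and each of these no longer passed an adjusted p of 0.05. For CX-5461 at 12 h the same happened without vehicle replicate 1 (0.84) or 2 (0.65) and without treated replicate 2 (0.79) or 3 (0.72). The effect of PMR-116 on MERTK was 2.61 higher at 12 h than at 3 h (1.66 to 3.56), whereas for CX-5461 the interval of that difference included 0 (0.64, -0.28 to 1.56). At 12 h the 2 compounds differed by 0.74 with an interval that included 0 (-0.18 to 1.65), and at 3 h by -1.23 (-2.19 to -0.28).

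TYRO3 stood lower where AXL and MERTK stood higher. With PMR-116 at 12 h it was at 4.33, 4.79 and 4.65 CPM against 8.57, 12.1 and 10.4 in the vehicle of Mv4;11. In the CX-5461 libraries of that time it was at 5.9, 8.65 and 6.61 against 10.8, 11.9 and 13.3. Neither comparison overlapped, and the treated libraries of PMR-116 lay below all those of CX-5461. The log2 fold change of TYRO3 was -1.17 ± 0.20 (-1.59 to -0.76) for PMR-116 and -0.77 ± 0.19 (-1.17 to -0.37) for CX-5461, and the interval of their difference included 0 (-0.41, -0.98 to 0.17). At 3 h TYRO3 overlapped its vehicle with both compounds, at 12.6, 11.5 and 12.5 against 8.42, 10.5 and 12.4 for PMR-116 (0.23 ± 0.19) and at 8.73, 15.4 and 10.8 against 9.64, 13.1 and 8.43 for CX-5461 (0.16 ± 0.19). The effect at 12 h differed from that at 3 h by -1.40 for PMR-116 (-1.97 to -0.83) and by -0.93 for CX-5461 (-1.49 to -0.37). The pseudogene copy TYRO3P held 0.992 to 16.7 counts per Mv4;11 library, against 164 to 607 for TYRO3, and reads from the copy could be split between them.

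**Figure D1:**
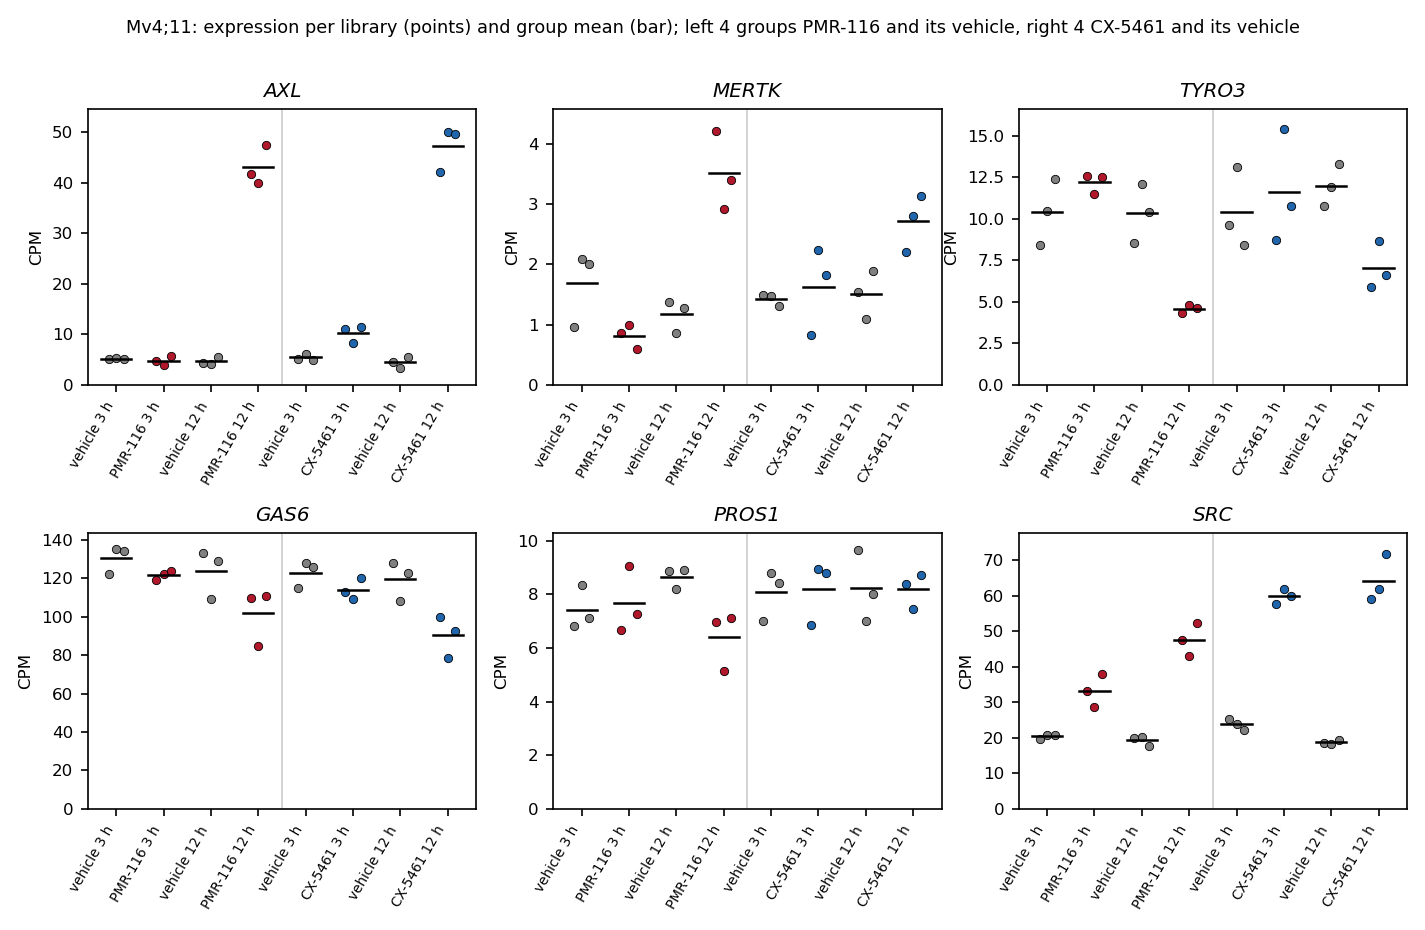
Level in CPM of the 6 genes in each of the 24 Mv4;11 libraries (points) with the group mean (bar), PMR-116 in red and CX-5461 in blue beside their vehicles in grey, at 3 h and 12 h. AXL and SRC stand above their vehicles at 12 h with both compounds, and TYRO3 stands below them.

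The other receptor tyrosine kinases gave a frame for these values, with 35 of 55 other family members tested in Mv4;11. AXL, MERTK and TYRO3 were picked with these responses known, so their places among the 35 are a description. AXL had a higher log2 fold change than all 35 at 12 h of either compound. The next was EPHB2, an ephrin receptor, at 2.46 for PMR-116, on a level of 0.702 against 0.125 CPM. For MERTK, 2 of the 35 stood higher at 12 h of PMR-116 and 7 at 12 h of CX-5461, and for TYRO3 1 of the 35 stood lower with each compound. By edgeR's quasi-likelihood test, 10 of the 35 rose and 4 fell at 12 h of PMR-116 (2 fell without vehicle replicate 1), with a median of 0.21 against 0.01 over all genes, where 43.2% of all genes were called. ERBB2 rose from 3.32 ± 1.05 to 9.07 ± 1.18 CPM (log2 fold change 1.45 ± 0.23, adjusted p = 1.56e-05), KIT, the receptor of stem cell factor, rose by 1.06 ± 0.11 (adjusted p = 3.41e-08), and the ephrin receptor EPHB4 fell by 0.97 (adjusted p = 8.56e-05). At 12 h of CX-5461, 5 rose and 2 fell, with a median of 0.22 against 0.04, where 31.4% of all genes were called. Without vehicle replicate 2 the count that rose was 3, and without vehicle replicate 1 or treated replicate 2 the count that fell was 1. KIT rose there by 0.90 ± 0.11 (adjusted p = 1.04e-06) and CSF1R, the receptor of macrophage colony-stimulating factor, by 0.63 ± 0.09 (adjusted p = 6.53e-06).

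**Figure D2:**
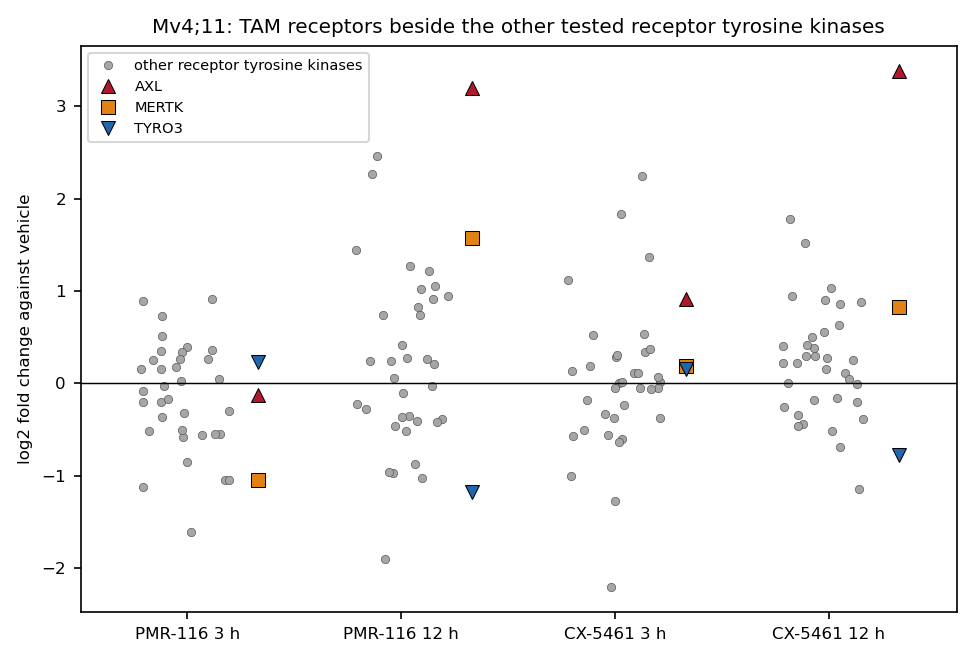
Log2 fold change against vehicle in Mv4;11 (vertical axis) for AXL, MERTK and TYRO3 (coloured marks) and the 35 other receptor tyrosine kinases tested (grey dots), in each compound and time. AXL lies above all grey dots at 12 h, at 3.20 with PMR-116 and 3.38 with CX-5461, and TYRO3 lies near the bottom. AXL, MERTK and TYRO3 were picked with these responses known.

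The ligands moved little by comparison. GAS6 was at 110, 84.7 and 111 CPM at 12 h of PMR-116 against 133, 109 and 129, which overlapped (-0.28 ± 0.10, -0.48 to -0.08). With CX-5461 at that time GAS6 was at 100, 78.6 and 92.8 against 128, 108 and 123, all lower (-0.41 ± 0.10, -0.61 to -0.21, 0.755-fold). Replicate 2 was lowest in each of these 4 groups. The difference between the compounds had an interval that included 0 (0.13, -0.16 to 0.41). At 3 h GAS6 was at 119, 122 and 124 against 122, 135 and 134 for PMR-116 (-0.10 ± 0.10) and at 113, 109 and 120 against 115, 128 and 126 for CX-5461 (-0.11 ± 0.10). PROS1, which also circulates as a cofactor of the anticoagulant protein C, was at 6.95, 5.15 and 7.11 at 12 h of PMR-116 against 8.88, 8.19 and 8.89, all lower (-0.43 ± 0.15, -0.75 to -0.12, 0.74-fold). With CX-5461 it overlapped its vehicle at 12 h, with 8.39, 7.45 and 8.71 against 9.65, 7.01 and 8 (-0.01 ± 0.15, -0.32 to 0.31), and the interval of the difference between compounds reached from -0.88 to 0.02 around -0.43. At 3 h PROS1 was at 0.05 with PMR-116 and 0.02 with CX-5461 on the log2 scale.

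Whether GAS6 and PROS1 passed an adjusted p of 0.05 at 12 h of PMR-116 varied with the libraries kept and with the scaling. With 1 library left out, GAS6 ranged from -0.36 to -0.19 and PROS1 from -0.53 to -0.33. A fit with fewer libraries also passes less readily, so a lost call does not show that a value rests on a single library. GAS6 no longer passed an adjusted p of 0.05 without vehicle replicate 1 (-0.22), without vehicle replicate 3 (-0.26), the library that stood apart, or without treated replicate 2 (-0.19). PROS1 did not pass without the same libraries, at -0.41, -0.43 and -0.33. When libraries were scaled to their totals in place of the trimmed mean of M-values, GAS6 was at -0.11 and PROS1 at -0.26, and neither passed. PROS1 also did not pass with no filter on low counts (-0.35). That scaling moved the median of all genes at 12 h from 0.01 to 0.18 for PMR-116 and from 0.04 to 0.12 for CX-5461. It moved the share of higher among called genes from 47.9% to 66.2% for PMR-116 and from 47.3% to 61.2% for CX-5461. At 3 h it moved that share from 45.6% to 56.1% for PMR-116 in Mv4;11, and in KG-1 from 49.3% to 38.4% for PMR-116 and from 53.9% to 42.4% for CX-5461. The pseudogene copy PROS2P had 0 counts in every library.

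GAS6 shares its place with a noncoding antisense gene, GAS6-AS1, on chromosome 13 from 113815630 to 113845744 on the plus strand. The library kit keeps the strand, but the strand setting used in counting is not given in the sources used here, so reads of the 2 genes cannot be told apart with certainty. In Mv4;11 at 12 h of PMR-116, GAS6-AS1 was at 51.8, 65.2 and 58.3 CPM against 19, 22.7 and 19.2. With CX-5461 it was at 58.8, 75.9 and 73.4 against 19.1, 21.3 and 20.6. It rose in both, by a log2 fold change of 1.53 ± 0.13 (adjusted p = 6.13e-10, edgeR's quasi-likelihood test) and 1.77 ± 0.13 (adjusted p = 2.48e-10), while GAS6 stood lower. At 3 h it was at -0.16 (adjusted p = 0.393) and 0.27 (adjusted p = 0.196). In KG-1, where GAS6 was nearly absent, GAS6-AS1 was at 24.8 to 61.1 CPM, and it fell at 3 h of PMR-116 from 53.1 ± 7.3 to 34.5 ± 3.53 (mean ± SD, n = 4, log2 fold change -0.62 ± 0.13, adjusted p = 0.00214).

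**Figure D3:**
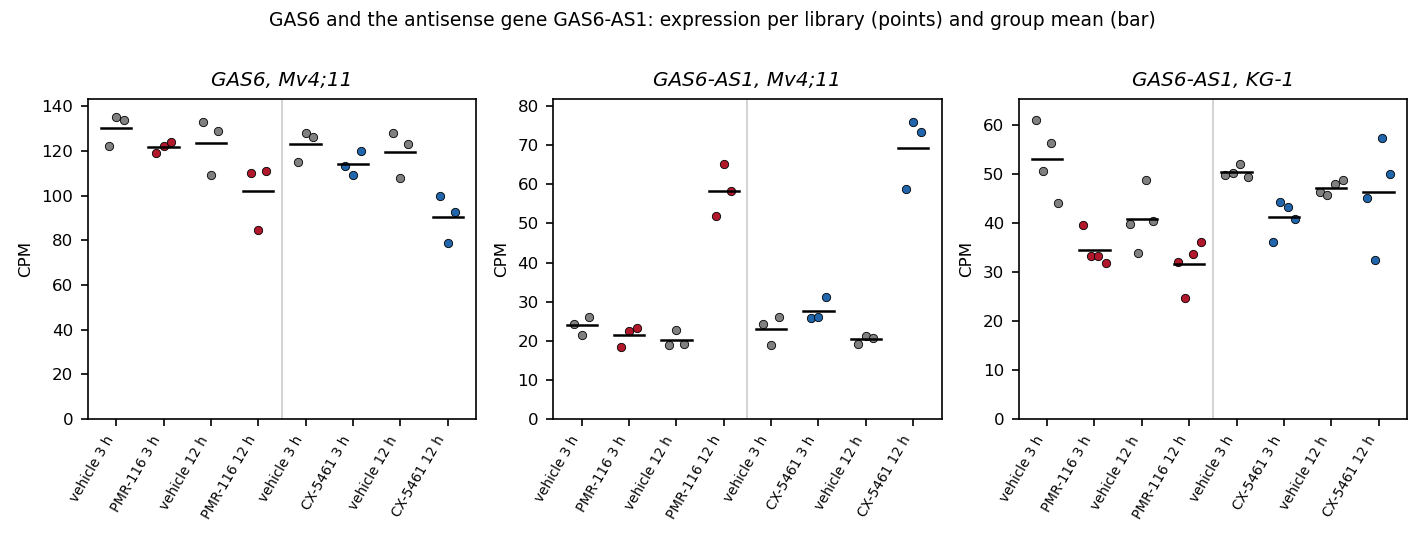
Level in CPM of GAS6 in Mv4;11 and of GAS6-AS1 in Mv4;11 and KG-1, by group, with each library as a point and the group mean as a bar. GAS6-AS1 in Mv4;11 is at 51.8 to 75.9 in the 12 h treated libraries and at 19 to 22.7 in their vehicles, while GAS6 is lower in the same treated groups.

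SRC differed from the receptors in that it already stood higher at 3 h with both compounds. At 3 h of PMR-116 it was at 33.1, 28.8 and 38 CPM against 19.8, 20.7 and 20.8 in the vehicle (0.71 ± 0.10, 0.51 to 0.9, 1.63-fold). At 3 h of CX-5461 it was at 57.6, 61.8 and 60 against 25.3, 24 and 22.3 (1.32 ± 0.09, 1.13 to 1.52, 2.5-fold). No treated library overlapped its vehicle, and the CX-5461 libraries were all above those of PMR-116. The vehicles at 3 h stood in the same order, with those for PMR-116 all below those for CX-5461 (log2 difference -0.23, -0.42 to -0.03). By 12 h SRC with PMR-116 was at 47.6, 42.9 and 52.4 against 19.9, 20.3 and 17.6 (1.31 ± 0.10, 1.11 to 1.5, 2.47-fold). With CX-5461 for 12 h it was at 59, 61.8 and 71.8 against 18.6, 18.3 and 19.3 (1.78 ± 0.10, 1.58 to 1.97, 3.42-fold). Again neither overlapped, and the order of the compounds was kept. The effect of PMR-116 on SRC minus that of CX-5461 was -0.62 at 3 h (-0.89 to -0.34) and -0.47 at 12 h (-0.75 to -0.19). The effect at 12 h exceeded that at 3 h by 0.6 for PMR-116 (0.32 to 0.88) and 0.45 for CX-5461 (0.18 to 0.72).

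In Mv4;11, members past an adjusted p of 0.05 numbered 2 of 6 at 3 h of PMR-116 (MERTK and SRC), where 24.1% of all tested genes passed, and 6 of 6 at 12 h, where 43.2% did. For CX-5461 they were 2 of 6 at 3 h (AXL and SRC), beside 11.7% of all genes, and 5 of 6 at 12 h, all but PROS1, beside 31.4%. Groups that did not overlap were found for 50.7% of all genes at 12 h of PMR-116 and 46% at 12 h of CX-5461, and for 35.9% and 28.1% at 3 h. The members were picked on these values, so nothing is read from their counts or from which of them passed.

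**Figure D4:**
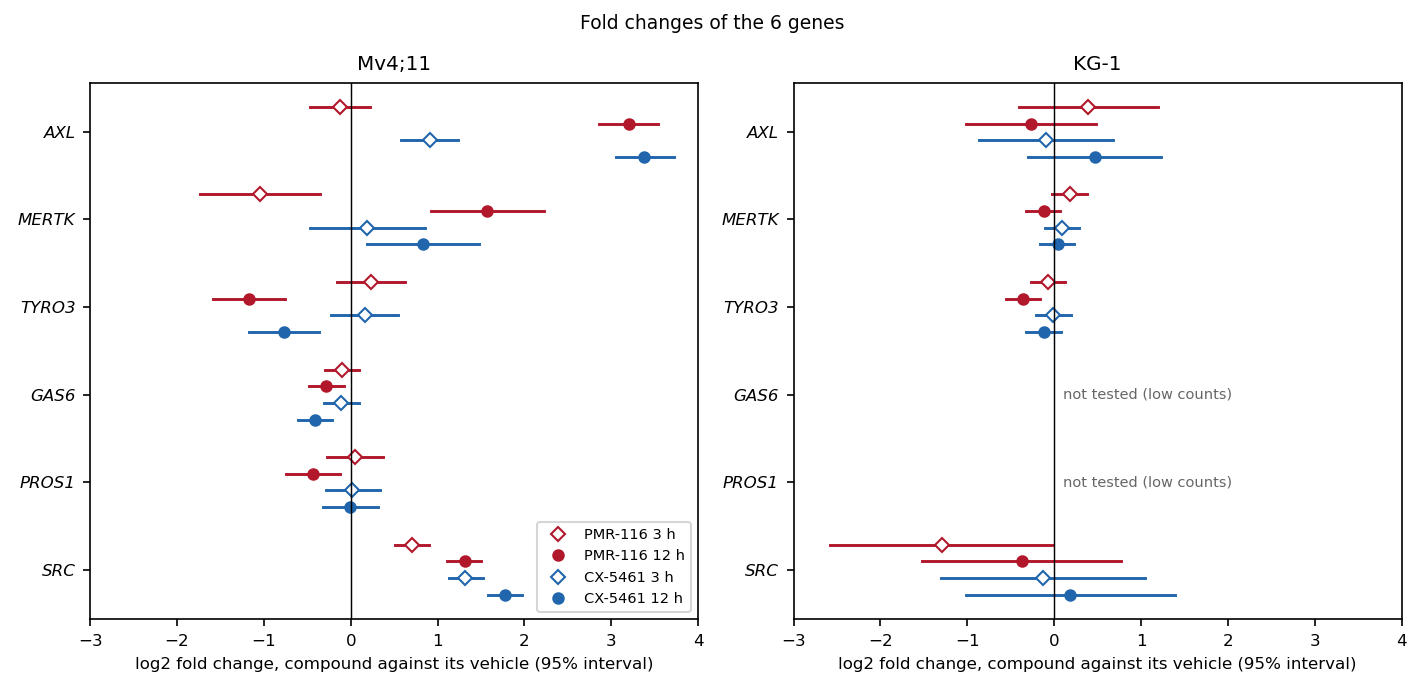
Log2 fold change of each gene against its own vehicle (horizontal axis) with the 95% interval, for PMR-116 in red and CX-5461 in blue, at 3 h (open diamonds) and 12 h (filled circles), in Mv4;11 and KG-1. The intervals of AXL at 12 h in Mv4;11 lie between 2.86 and 3.72, whereas those of AXL in KG-1 at 12 h include 0. GAS6 and PROS1 were not tested in KG-1.

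Genes that work with the receptors and SRC were counted in lists, by edgeR's quasi-likelihood test with Benjamini-Hochberg adjustment over all genes. At 12 h, 43.2% of all genes were called with PMR-116 and 31.4% with CX-5461, and each count is to be read against these shares. Of 24 TAM signalling genes, 7 rose and 8 fell at 12 h of PMR-116 (median -0.06, all genes 0.01) and 4 rose and 5 fell at 12 h of CX-5461 (median -0.05, all genes 0.04). The cytokine signalling inhibitor SOCS1 rose by 0.81 ± 0.20 (adjusted p = 0.00213) and 1.0 ± 0.21 (adjusted p = 0.000515) with PMR-116 and CX-5461. The adaptor GRB2, which links receptors to RAS, fell by 0.46 with PMR-116 (adjusted p = 2.5e-07). The kinase AKT1 fell by 0.41 with PMR-116 (adjusted p = 8.51e-06) and by 0.21 with CX-5461 (adjusted p = 0.0128), the latter not past the threshold with library totals or with no filter on low counts. For CX-5461 the count that fell was 3 without vehicle replicate 2. With library totals 11 rose and 4 fell for PMR-116, and 1 fell for CX-5461.

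The genes that process the ligands or shed the receptors were 9 tested of 10. At 12 h of PMR-116, 4 rose and 4 fell (median -0.02), and 2 rose without treated replicate 1 or 3 or vehicle replicate 1. ADAM10, a protease that sheds AXL, rose from 157 ± 7.28 to 195 ± 2.24 CPM (0.31 ± 0.05, adjusted p = 3.64e-05), and RHBDF2, a partner of the protease ADAM17, rose by 0.63 ± 0.11 (adjusted p = 2.44e-05). TIMP3, an inhibitor of such proteases, fell from 3.47 ± 0.139 to 0.893 ± 0.249 (-1.95 ± 0.27, adjusted p = 2.01e-06). The carboxylase GGCX, which modifies GAS6 and PROS1, fell by 0.46 (adjusted p = 0.000367), as did VKORC1L1, a vitamin K reductase, by 0.53 (adjusted p = 4.51e-06). At 12 h of CX-5461, 2 rose and 2 fell (median 0.13), and 1 rose without vehicle replicate 1 or treated replicate 2. RHBDF2 rose by 0.75 ± 0.11 (adjusted p = 5.77e-06) and VKORC1L1 fell by 0.45 (adjusted p = 8.13e-05), and TIMP3 was at 0.13 (adjusted p = 0.756).

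Uptake of dead cells is the process that MERTK is best known for. Of 34 such genes tested, 16 rose and 3 fell at 12 h of PMR-116 (median 0.3 against 0.01 over all genes), and 15 rose and 3 fell at 12 h of CX-5461 (median 0.36 against 0.04). ABCA1, a lipid exporter of phagocytes, rose from 8.37 ± 0.997 to 40.6 ± 6.11 CPM with PMR-116 (2.28 ± 0.19, adjusted p = 6.18e-10), and the scavenger receptor CD36 rose from 39.9 ± 4.61 to 108 ± 8.83 (1.43 ± 0.18, adjusted p = 5.76e-07). With CX-5461 the lipid receptor TREM2 rose from 7.19 ± 1.54 to 22.3 ± 2.85 (1.63 ± 0.23, adjusted p = 6.01e-06) and the engulfment receptor LRP1 by 1.23 ± 0.18 (adjusted p = 7.05e-06). Calreticulin (CALR), an endoplasmic reticulum chaperone that can also mark dying cells, fell from 1250 ± 126 to 503 ± 47.9 with PMR-116 (-1.31 ± 0.09, adjusted p = 4.76e-11) and by 0.47 with CX-5461 (adjusted p = 0.000323). Monocyte and macrophage markers moved beside these genes. Of the 10 tested of 14, 4 rose and 2 fell at 12 h of PMR-116 and 5 rose and 0 fell at 12 h of CX-5461, with the costimulatory ligand CD86 at 3.61 ± 0.30 and 2.06 ± 0.30. The genes that fell with PMR-116 were lysozyme (LYZ, log2 fold change -0.51, edgeR's quasi-likelihood test, adjusted p = 0.000372) and the Fc receptor FCGR1A (-0.37, adjusted p = 0.0102), the latter not past the threshold without vehicle replicate 1 or with library totals. Their summed level was 871 to 1130 CPM at 12 h of PMR-116 against 1220 to 1380 in the vehicle, and 1260 to 1550 against 1310 to 1450 for CX-5461, and MRC1 was at or under 3 counts in every Mv4;11 library. Stromal (fibroblast, endothelial and epithelial) markers summed to 113 to 127 CPM at 12 h of PMR-116 against 61.9 to 73.7, and to 99.1 to 114 at 12 h of CX-5461 against 65.2 to 80.1, with COL3A1, EPCAM and KRT19 at or under 3 counts in these groups. Erythroid and megakaryocyte markers summed to 12.9 to 14.6 against 4.54 to 5.93 and to 15.2 to 18.2 against 4.97 to 6.14, with the haemoglobin genes at or under 3 counts. At 12 h of PMR-116 most of the stromal sum was PECAM1 (mean 111 against 58 CPM), and PDGFRB went from 1.14 to 0.305. Of the 7 stromal markers tested there, 2 rose and 1 fell. Nearly all of the erythroid and megakaryocyte sum was ITGA2B (13.7 against 4.87), the only 1 of the 8 that was tested. At 3 h of PMR-116, where 24.1% of all genes were called, all 7 tested of 8 progenitor markers fell, and their sum was 970 to 1070 against 1370 to 1440. At 12 h, 2 progenitor markers rose and 1 fell with PMR-116, and 3 rose and 1 fell with CX-5461. Their sums were then 1310 to 1390 against 1240 to 1370 with PMR-116, and 1350 to 1390 against 1290 to 1360 with CX-5461. The part of these markers in the values of the 6 genes was not tested.

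Among the 7 tested relatives of SRC, 3 rose and 0 fell at 12 h of PMR-116 (median 0.2) and 4 rose and 0 fell at 12 h of CX-5461 (median 0.39). LYN, which acts in myeloid and B cells, rose from 138 ± 6.32 to 229 ± 6.46 CPM with PMR-116 (0.73 ± 0.08, adjusted p = 3.7e-08) and by 0.39 with CX-5461 (adjusted p = 0.000379). FGR rose by 0.38 (adjusted p = 0.00479) and 0.78 (adjusted p = 2.82e-06). Of 24 regulators and substrates of SRC, 6 rose and 4 fell with each compound at 12 h (medians 0.08 and -0.04), and 2 fell with CX-5461 without any 1 of the vehicle replicates. With library totals 14 rose for PMR-116 and 2 fell for CX-5461. The phosphatase PTPRC (CD45), which can activate the family, rose from 82 ± 5.15 to 165 ± 3 with PMR-116 (1.01 ± 0.08, adjusted p = 3.56e-10), and STAT3, a substrate, rose by 0.87 ± 0.06 (adjusted p = 1.01e-10) and by 0.65 ± 0.06 with CX-5461 (adjusted p = 3.63e-08). MATK, a CSK-like kinase that restrains the family, fell from 108 ± 6.69 to 35.7 ± 3.16 with PMR-116 (-1.60 ± 0.07, adjusted p = 2.35e-14) and by 0.83 with CX-5461 (adjusted p = 2.52e-09). CSK itself was at -0.07 (adjusted p = 0.331) and -0.02 (adjusted p = 0.815).

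Transcription factors reported elsewhere to act on AXL were 14 tested of 17, of which 6 rose and 2 fell at 12 h of PMR-116 (median 0.14) and 3 rose and 2 fell at 12 h of CX-5461 (median -0.03). Without vehicle replicate 2 the count that fell for PMR-116 was 1. FOSL2, an AP-1 subunit, rose from 129 ± 10 to 253 ± 9.19 CPM with PMR-116 (0.97 ± 0.08, adjusted p = 7.29e-10) and by 0.57 with CX-5461 (adjusted p = 6.59e-06). TEAD4, a partner of YAP, fell from 6.28 ± 0.123 to 1.46 ± 0.261 (-2.10 ± 0.21, adjusted p = 9.3e-09) and by 1.21 with CX-5461 (adjusted p = 3.08e-05). At 3 h of PMR-116, where 24.1% of all genes were called, the counts that rose and fell were 3 and 7 of 24 TAM signalling genes, 0 and 1 of 9 ligand and shedding genes, 1 and 2 of 34 uptake genes, 2 and 2 of 7 SRC relatives, 4 and 7 of 24 SRC regulators and substrates, 3 and 4 of 35 receptor kinases, and 4 and 1 of 14 AXL regulators. For CX-5461 at 3 h, where 11.7% of all genes were called, they were 2 and 3, 0 and 0, 4 and 2, 0 and 0, 2 and 3, 2 and 1, and 1 and 0 in the same order.

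Genes were also ranked by how closely their log2 CPM followed AXL or SRC over the 24 Mv4;11 libraries, among 10747 genes with a mean of 5 or more. Nearest to AXL were CCDC57 (Pearson r 0.969), ZNF385A (0.968), TP53I3 (0.961), GAS6-AS1 (0.96) and CUEDC1 (0.959). Of these, TP53I3 had log2 fold changes of 3.32 and 3.4 at 12 h of PMR-116 and CX-5461, near those of AXL, whereas CCDC57 was at 0.73 and 0.68. Nearest to SRC were ARHGEF3 (0.948), ZMAT3 (0.94), RETSAT (0.929), EDA2R (0.925) and APOBEC3C (0.924). ZMAT3 was at 1.4 and 1.32 at 12 h, and EDA2R at 1.86 and 1.63. The correlations are descriptions over libraries that share groups, batch and treatment.

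The vehicle libraries were also compared with each other. The same libraries entered the compound contrasts on which the 6 genes were chosen, so a gene chosen for standing above its 12 h vehicle leans to a low 12 h vehicle, and the values of the 6 genes are given here as a description. In Mv4;11, 12.9% of all genes differed between 12 h and 3 h of vehicle culture. SRC was at 19 ± 1.0 CPM at 12 h against 22.1 ± 2.14 at 3 h (SD, n = 6 libraries each), and the groups overlapped (log2 fold change -0.22 ± 0.07, 95% interval -0.36 to -0.07). AXL was at -0.21 (-0.45 to 0.04), and the intervals of MERTK, TYRO3, GAS6 and PROS1 also included 0. In KG-1, 31.6% of all genes differed. MERTK was at 16 ± 1.19 CPM at 12 h against 12 ± 0.823 at 3 h there (SD, n = 8 libraries each). All 12 h libraries were above all 3 h libraries, which held for 8.82% of all genes, and the log2 fold change was 0.41 ± 0.07 (0.27 to 0.55). It stayed between 0.39 and 0.44 with each of these libraries left out in turn. The intervals of AXL, TYRO3 and SRC in KG-1 included 0. Between the vehicles of the 2 compounds, edgeR called 0 genes in each line and time, with an unadjusted p under 0.05 for 762 genes at 3 h and 858 at 12 h in Mv4;11 and for 838 at 3 h and 479 at 12 h in KG-1, and DESeq2 called 1, 1, 4 and 1.

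In KG-1 the response of AXL and SRC seen in Mv4;11 had no counterpart that these counts could resolve. AXL was at 0.11 to 0.438 CPM in all 32 libraries, 5.8 to 24.2 counts. Its log2 fold change at 12 h was -0.27 with PMR-116 (95% interval -1.02 to 0.48) and 0.47 with CX-5461 (-0.3 to 1.23), and at 3 h it was 0.39 (-0.41 to 1.2) and -0.09 (-0.86 to 0.68). These intervals include 0 and none reaches the values of Mv4;11 at 12 h. SRC was at 0.0749 to 1.0 CPM, 4.17 to 47.9 counts, and its values were -1.29 ± 0.63 (-2.58 to -0.01) at 3 h of PMR-116, with overlapping groups, and -0.37, -0.13 and 0.18 at 12 h of PMR-116 and at 3 h and 12 h of CX-5461. With 1 library left out, SRC at 3 h of PMR-116 ranged from -1.65 to -0.6, the latter without vehicle replicate 3.

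TYRO3 and MERTK were the expressed receptors of KG-1. TYRO3 at 12 h of PMR-116 was at 29, 28.3, 29.8 and 28.4 CPM against 33, 40.1, 32.1 and 43.5, all lower (-0.36 ± 0.10, -0.56 to -0.16, 0.778-fold). Vehicle replicates 2 and 4 were the high ones, and the value no longer passed an adjusted p of 0.05 without replicate 2 (-0.33) or replicate 4 (-0.28). With CX-5461 at 12 h TYRO3 was at -0.12. MERTK at 3 h of PMR-116 was at 13.2, 13.4, 13.5 and 14.1 against 13, 11.8, 10.8 and 12.2, all higher, by 0.18 ± 0.10 with an interval that included 0 (-0.02 to 0.38). Of the 4 members tested in KG-1, 1 passed an adjusted p of 0.05 at 12 h of PMR-116 (TYRO3), where 9.46% of all genes did, and 0 passed at 3 h of PMR-116 (7.33% of all genes) and at 3 h and 12 h of CX-5461 (3.44% and 2.54%). Groups did not overlap for 13% of all genes at 12 h of PMR-116 and for 13.3% at 3 h, and for 7.56% and 10.5% with CX-5461. GAS6 was at 0 to 0.416 CPM, at 0 in 3 libraries, and PROS1 at 0 to 0.102, at 0 in 21 of 32. The limit that a count of 0 allows (3 counts, counting error only) was 0.0401 to 0.1 CPM.

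**Figure D5:**
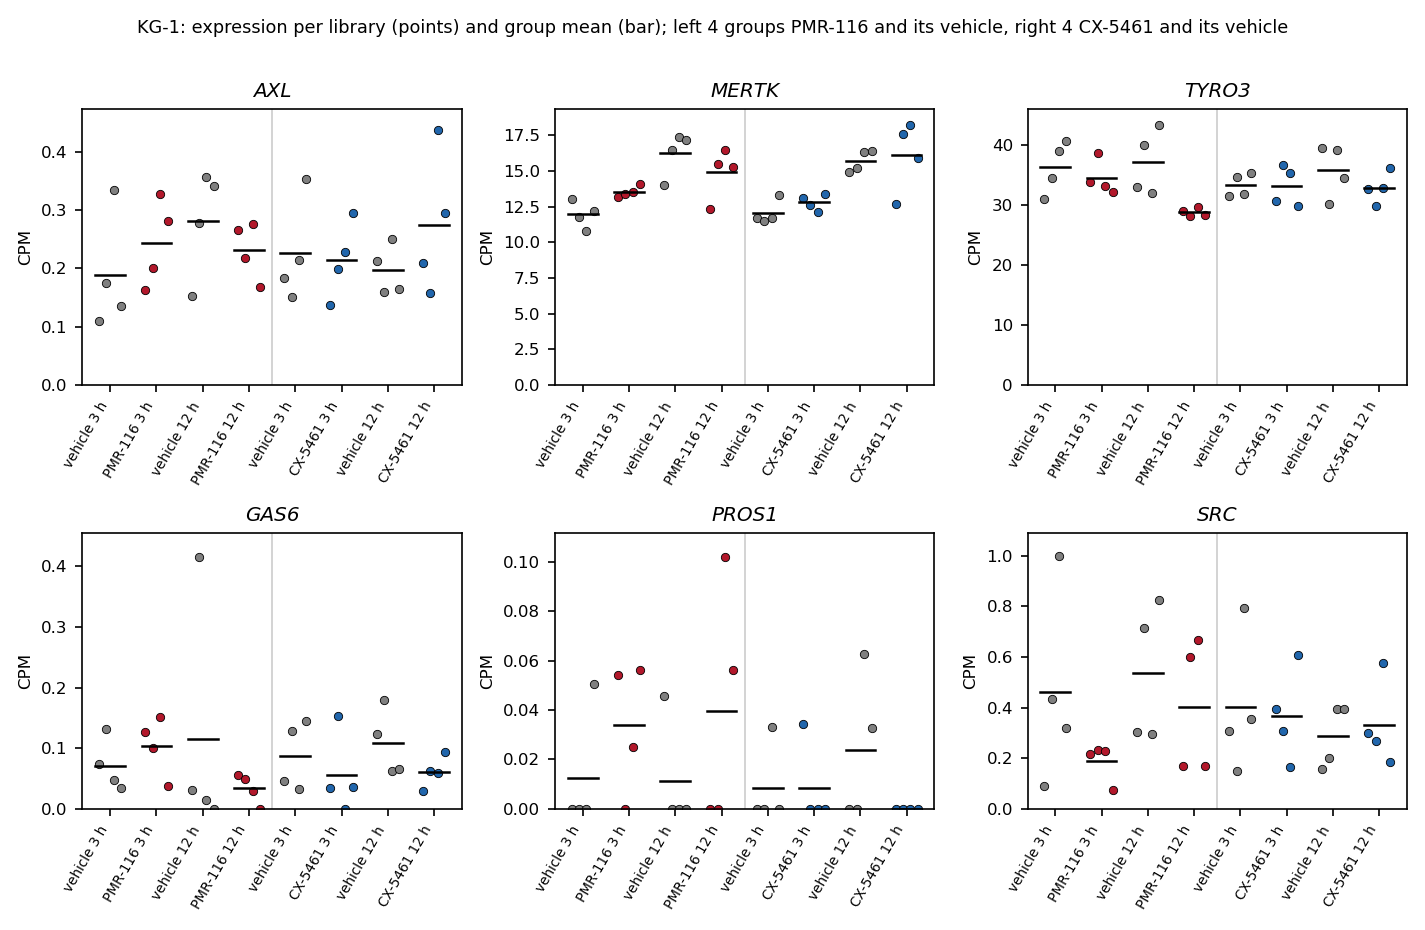
Level in CPM of the 6 genes in each of the 32 KG-1 libraries (points) with the group mean (bar), PMR-116 in red and CX-5461 in blue beside their vehicles in grey, at 3 h and 12 h. AXL, SRC, GAS6 and PROS1 lie at or below 1.0, and TYRO3 at 12 h of PMR-116 lies at 28.3 to 29.8, below its vehicle.

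In KG-1 between 0 and 3 genes of each of the 7 lists rose and between 0 and 3 fell in each comparison, where 7.33% and 9.46% of all genes were called at 3 h and 12 h of PMR-116 and 3.44% and 2.54% at 3 h and 12 h of CX-5461, and with 1 library left out these counts were 0 to 3 and 0 to 4. The counts and shares come from a fit without replicate pairs, and a fit with a replicate block called more genes in each comparison. BCAR1, an adaptor that SRC phosphorylates, rose in all 4 comparisons (0.47 and 0.65 with PMR-116 and CX-5461 at 3 h, and 0.32 and 0.35 at 12 h, by edgeR's quasi-likelihood test with adjusted p from 1.38e-06 to 0.0042). At 12 h neither call held when only the groups of the contrast were fitted (adjusted p = 0.0621 and 0.0781).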

How the data were processed

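RNA was measured in 56 libraries of Mv4;11 and KG-1. The deposited tables, 1 per line, hold an estimated count per gene symbol computed by the authors from the reads, and Salmon 1.5.2, DESeq2 and GRCh38.p13 are named without roles, per the submitters' processing notes. The annotation release is not given in the sources used here, and 24 columns for Mv4;11 that belong to no labelled sample were not used. Counts were rounded and analysed with edgeR 4.0.16 (limma 3.58.1, R 4.3.3): filterByExpr (minimum count 10, minimum total 15), scaling by the trimmed mean of M-values, and a quasi-likelihood fit of the 8 groups of a line together. Tests were 2-sided, with Benjamini-Hochberg adjustment over every tested gene and calls under 0.05. The fit was tested on simulated data. CPM use the scaled library size. Errors after a log2 fold change are standard errors, and intervals are at the 95% level.

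The members and lists were chosen with earlier results of these data known. For each list and compound against vehicle, the genes eligible to be named were up to 3 rises and 3 falls with the largest change among calls with no overlap between groups and a mean of at least 1 CPM in the group that is higher. Of these, the report gives examples whose call held with each library left out. FCGR1A at 12 h of PMR-116 is an exception, given with its limit, and genes flagged for opposite directions were not held to this condition. EPHB2, CSK and the CX-5461 value of TIMP3 lie outside this rule and were added after their values were seen. For AXL and SRC the 5 best correlated genes were named. The lists were TAM signalling, ligand processing and shedding, uptake of dead cells, SRC relatives, SRC regulators and substrates, other receptor tyrosine kinases, AXL regulators, and markers of progenitor, monocyte, lymphocyte, stromal and erythroid cells. In KG-1 stromal markers summed to 151 to 195 CPM and erythroid and megakaryocyte markers to 511 to 715. Alternatives were other scalings, no filter, a replicate block, only the groups of a contrast, DESeq2 1.42.0, and leaving out each library.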

Additional observations from a re-analysis of the deposited data

Results flagged for a closer look

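In KG-1, groups of 4 libraries were checked for a library far from the others, and 7 of 48 groups held one. The rate of about 1 in 20 that chance gives does not apply to the 4 PROS1 groups among them, in which the other 3 libraries were all at 0. GAS6 was at 0.416 CPM in the replicate 2 library of the 12 h PMR-116 vehicle, against at most 0.0305 in the others. MERTK was at 13.3 in replicate 4 of the vehicle for CX-5461 at 3 h, against at most 11.7. SRC was at 0.0749 in replicate 4 of PMR-116 at 3 h, against at least 0.217. PROS1 was above 0 in a lone library of 4 groups, at 0.0342 (CX-5461 at 3 h, replicate 1), 0.0331 (its vehicle at 3 h, replicate 3), 0.0457 (PMR-116 vehicle at 12 h, replicate 1) and 0.0505 (PMR-116 vehicle at 3 h, replicate 4).

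Each check for opposite directions took a gene in a pair of comparisons of the same compound that differed only in line or only in time. In 8 of 78 such checks, all treated libraries stood on opposite sides of their vehicles, and the difference was not tested. List genes entered only where they were already called with no overlap between groups, so 8 of 78 is not a rate over genes. None of the 6 genes was flagged. The vitamin K reductase VKORC1L1 at 12 h of PMR-116 was at a log2 fold change of 0.21 in KG-1 and -0.53 in Mv4;11, and SOCS1 at 3 h of PMR-116 at -0.29 and 0.74. With CX-5461 in Mv4;11, PTPRC was at 0.43 at 12 h and -0.35 at 3 h, and the focal adhesion gene PXN at -1 and 1.16. With PMR-116 in Mv4;11, 12 h and 3 h values were 0.95 and -0.58 for CSF1R, 0.38 and -0.34 for FGR, -0.27 and 0.66 for the AP-1 gene FOSL1, and 1.06 and -0.56 for KIT.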

How the results depend on the processing

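Counts were low for AXL, SRC, GAS6 and PROS1 in KG-1 and for MERTK in Mv4;11, which limits their precision. The directions of AXL, TYRO3 and SRC at 12 h in Mv4;11 held under every alternative run. SRC at 12 h of PMR-116 moved from 1.31 to 1.48 with library totals, and MERTK at 3 h of PMR-116 did not pass when only its own groups were fitted. Calls over all genes in KG-1 were 1364, 1762, 640 and 473 for PMR-116 at 3 h and 12 h and CX-5461 at 3 h and 12 h. Without the filter they were 1152 at 12 h of PMR-116 and 371 and 268 for CX-5461 at 3 h and 12 h. With only the groups of the contrast they were 911, 332 and 71 in that order, and DESeq2 called 1102 and 800 for CX-5461. Replicate numbers were not taken as pairs, since same-numbered deviations did not correlate above 0.1 in every pair: they did in 1 of 12 pairs in Mv4;11 (-0.0133 to 0.11) and in 9 of 16 in KG-1 (0.0237 to 0.238), and 10 of 12 and 13 of 16 treated libraries correlated best with their own number. That rule does not exclude pairing, and the shares and list counts given above come from the fit without pairs. With the replicate block, calls in KG-1 were 2599, 3198, 1733 and 1313, and 1 between the Mv4;11 vehicles at 3 h, and GAS6 at 12 h of PMR-116 in Mv4;11 stayed at -0.28. Between vehicles, where the main count was 0, no filter gave 126 at 3 h and 174 at 12 h in Mv4;11, DESeq2 gave 1 and 1 there and 4 and 1 in KG-1, and the contrast's own groups gave 1 and 1 in KG-1. The cause was not tested.

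With each library left out, calls ranged from 3461 to 4710 and 7879 to 8375 for PMR-116 at 3 h and 12 h in Mv4;11, 1573 to 1948 and 5294 to 6040 for CX-5461, and 1735 to 2589 for vehicle time. In KG-1 they ranged from 901 to 1279, 1191 to 1513, 362 to 582, 288 to 401 and 5166 to 5967. Between vehicles they stayed at 0, except 0 to 17 in Mv4;11 at 12 h (17 without PMR-116 vehicle replicate 1). Signs changed only in values that passed no test. Between Mv4;11 vehicles at 3 h, TYRO3 was -0.01 with no filter, 0 with DESeq2 and -0.15 to 0.2 with a library left out, and AXL -0.13 to 0.02. At 12 h the ranges were -0.12 to 0.23 for AXL, -0.03 to 0.12 for GAS6, -0.03 to 0.2 for PROS1 and -0.01 to 0.09 for SRC. Between KG-1 vehicles they were -0.53 to 0.72 for SRC, -0.06 to 0.04 for MERTK and -0.7 to 0 for AXL at 3 h, and -0.03 to 0.11 for TYRO3 at 12 h. For vehicle time in KG-1 SRC ranged from -0.31 to 0.21, and GAS6-AS1 at 12 h of CX-5461 in KG-1 from -0.16 to 0.1. Of the values of the 6 genes under alternatives, 1715 kept their direction and side of the threshold or moved by less than the spread. Between vehicle groups, 21 changed sign. Compound effects that had not passed were not counted for a change of sign, and some crossed 0 with a library left out. In Mv4;11 at 3 h, AXL ranged from -0.27 to 0.02 and PROS1 from -0.09 to 0.14 with PMR-116, and MERTK from -0.11 to 0.52 with CX-5461. In KG-1 at 3 h of CX-5461, SRC ranged from -0.48 to 0.43.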
